A study of Homo sapiens with 8 samples.

Results

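Untreated cells of the small cell lung cancer line SBC-3 were compared with untreated cells of the lung adenocarcinoma line A549, by the green (Cy3) channel of Agilent expression arrays. The comparison takes 6 of the 8 arrays of the series, 3 of each line, chosen by the cell line and by the label of the green channel. The SBC-3 RNA is labelled as mock and also as not transfected, and the A549 RNA as a control without genome editing. The red (Cy5) channel of the same arrays held RNA of SBC-3 cells that received an siRNA against *DONSON*, a different siRNA on each array, and of A549 cells with an edited *LOXL2* gene. The remaining 2 arrays hold the squamous lines EBC-1 and SK-MES-1 and were left out. All arrays lie on 1 slide, and the labels name RPMI or EMEM as medium without saying which line grew in which, so that medium and line cannot be told apart. The labels do not say whether the 3 green channels of a line hold separate RNA extracts or 1 extract, and the p-values given here measure only the spread between arrays, which may be technical.

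Small cell lung cancer is a fast-growing tumor type that usually carries the program of pulmonary neuroendocrine cells, driven by lineage factors such as *NEUROD1*, while a smaller share of these tumors lacks that program and expresses *POU2F3* or *YAP1* instead. Lung adenocarcinoma arises from gland-forming or alveolar cells and usually expresses simple keratins and epithelial junction genes. A549, a widely used line of that type, is known for inactive *KEAP1*, the protein that marks the antioxidant transcription factor NRF2 (*NFE2L2*) for destruction, and for loss of *SMARCA4* and *CDKN2A*.

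The lines differed over much of the measured transcriptome. Of 22439 genes named on the array, 14729 had a probe well above background, as marked by the image analysis software, on all 3 arrays of at least 1 line, and these were tested with limma. A gene was called when its Benjamini-Hochberg adjusted p was under 0.05 and its log2 difference was at least 1 in size, which is a 2-fold difference. By this rule 3003 genes (20.4%) were higher in SBC-3 and 3049 (20.7%) were higher in A549. Of these, 1456 and 1552 differed by at least 2 on the log2 scale. Since a gene that passed through 1 line alone had to differ, the counts were also taken over the 11393 genes with every counted probe well above background on all 6 arrays, called measured in both lines below, where 1845 (16.2%) were higher in SBC-3 and 1544 (13.6%) in A549. The median difference, always given as SBC-3 minus A549 on the log2 scale, was -0.02 over all genes tested and 0.05 over those 11393. With normexp, which here took median signals, another background correction and an added offset of 50 in place of the processed signals, 1080 and 1102 genes were called. These changes were made together, the offset narrows the differences of dim genes, and their parts were not tested. The named genes that lost their call there are listed with the limits of the processing at the end. The counts given for gene lists below stand against the percentages above, and a share near them is no result about a list. The lists and their members were chosen with earlier results of these data known, so the counts describe the lists and are not tests. A further 787 genes were well above background on all 3 SBC-3 arrays and on no A549 array, and 1190 were so in A549 alone.

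The arrays of a line resembled each other closely. For bright genes, with a mean log2 intensity over 8, log2 levels differed from array to array with an SD of 0.119 to 0.130 within SBC-3 and of 0.0864 to 0.0938 within A549. Repeated spots of a probe within an array differed with an SD of 0.0721 to 0.0944. The levels of the 3 SBC-3 arrays did not overlap with those of the 3 A549 arrays for 13057 genes, or 88.6% of those tested. Between 42.2% and 43% of the spots were well above background in the green channel of the SBC-3 arrays and 45.2% to 45.5% in that of the A549 arrays, with 0 saturated spots.

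**Figure D1:**
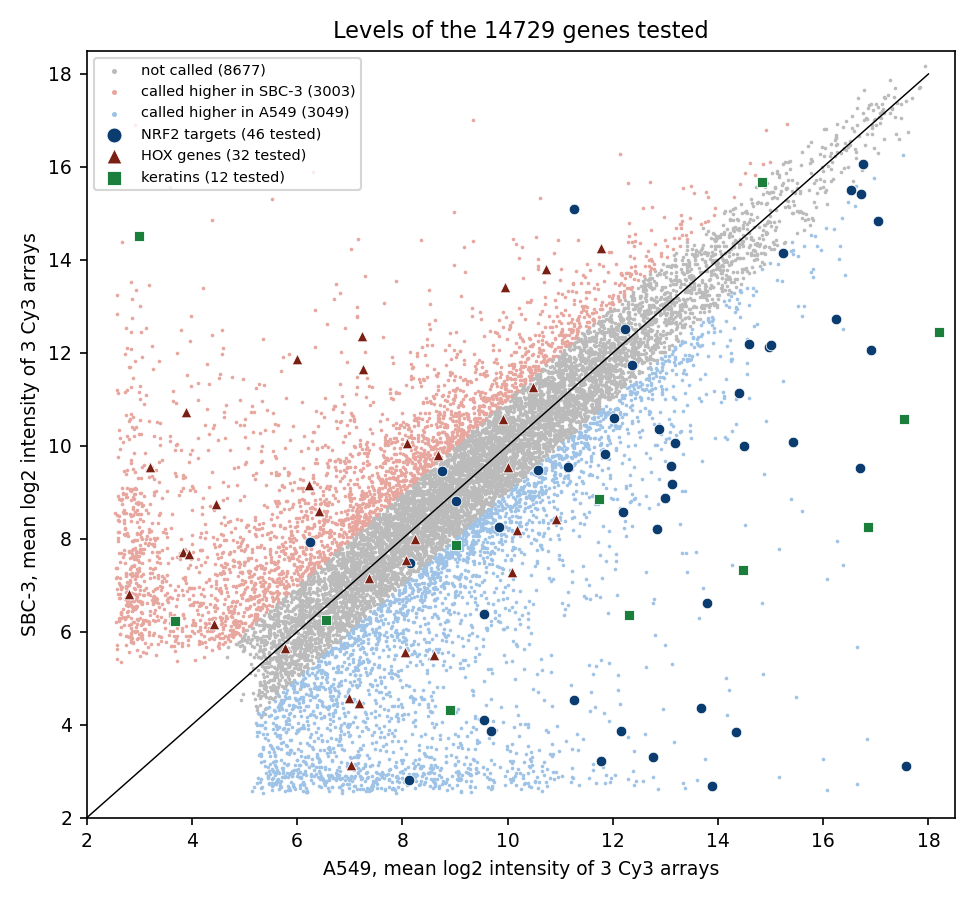
Mean log2 intensity of each of the 14729 genes tested in A549 (horizontal axis) and SBC-3 (vertical axis), each over 3 Cy3 arrays, with the line of equal levels. Most of the 46 NRF2 targets (dark blue circles) and most of the 12 keratins (green squares) lie below the line, toward A549, while 17 of the 32 tested HOX genes (brown triangles) were called higher in SBC-3.

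Among genes measured in both lines, the 15 with the largest differences toward SBC-3 had log2 differences from 6.06 to 9.79. *SPINK6*, a serine protease inhibitor, read 15.28, 15.33 and 15.32 on the SBC-3 arrays and 5.61, 5.15 and 5.79 on the A549 arrays. All 3 SBC-3 arrays were high and all A549 arrays low, with no overlap, an 886-fold difference (log2 9.79 ± 0.17 SE, adjusted p = 8.29e-08). The lowest levels well above background on the A549 arrays were 4.83 to 4.93, close to those of *SPINK6*. Its difference in Cy5 was 13.58, so the fold is not exact. *NTS* encodes neurotensin, a peptide hormone that some small cell tumors secrete. It read 16.96, 16.96 and 17.08 on the SBC-3 arrays and 9.32, 9.36 and 9.37 on the A549 arrays, and the lines did not overlap (201-fold, adjusted p = 1.74e-09). *CDKN1C* encodes the cell cycle inhibitor p57. Its levels were 14.22, 14.28 and 14.21 on the SBC-3 arrays and 7.14, 6.83 and 7.09 on the A549 arrays, high in SBC-3 throughout (148-fold, adjusted p = 2.43e-08). For *CDKN1C* the log2 difference was 7.21 in Cy3 and 4.80 in Cy5. *EGR1*, an immediate early transcription factor, was 106-fold higher in SBC-3, and *HK2*, the hexokinase that opens glycolysis in many tumors, 88.4-fold. *PLTP*, a phospholipid transfer protein of plasma, was 70.1-fold higher, and *COL9A3*, a cartilage collagen chain, 88.9-fold. The other genes of this group of 15 were *IFIT1*, *SKAP1*, *EFEMP2*, *KRT222*, *CCR7*, *MGAT3*, *BEX2* and *KCNMB4*.

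The 15 with the largest differences toward A549 had log2 differences from -8.94 to -6.13. *ANXA1*, a calcium-dependent phospholipid-binding protein of the plasma membrane, read 16.36, 16.39 and 16.40 on the A549 arrays and 7.29, 7.49 and 7.55 on the SBC-3 arrays. The A549 arrays were high and the SBC-3 arrays low without overlap (491-fold, adjusted p = 4.99e-09). *SPINT2*, which inhibits membrane serine proteases, read 14.90, 14.79 and 14.78 on the A549 arrays and 6.74, 6.43 and 6.71 on the SBC-3 arrays, again with no overlap (294-fold, adjusted p = 1.91e-08). *S100A10*, the partner of annexin A2, was 129-fold higher in A549, *S100P* 115-fold, *LGALS3*, which encodes galectin-3, 70.3-fold, and *TESC*, a calcium-binding regulator of ion exchange, 165-fold. *ID1*, a repressor of basic helix-loop-helix factors and a target of bone morphogenetic protein signaling, was 91.8-fold higher in A549. *KRT7*, *KRT18*, *KRT18P55*, *KRT19*, *MET*, *NR0B1*, *AKR1C3* and *MORC4* complete the 15. *KRT18P55* is a pseudogene that shares sequence with *KRT18*, and its probe may read *KRT18* transcripts.

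Some genes were detected in 1 line only. For these the fold is a lower bound, taken against the lowest level that was well above background on each array of the other line. No p is given for them, since they passed the filter through 1 line and the test ran against values near background. In SBC-3 the largest bound belonged to *ITM2A*, a membrane protein of cartilage and T cell development, at 17.13, 16.73 and 16.84 on the 3 arrays (at least 4179-fold higher). It was not well above background on any A549 array. *PTX3*, a secreted pattern recognition protein, was at least 1024-fold higher in SBC-3. *FOLH1*, known as prostate-specific membrane antigen, was at least 279-fold higher, *SOSTDC1*, a secreted antagonist of bone morphogenetic proteins and Wnt ligands, at least 312-fold, and *MTTP*, which loads lipid onto apolipoprotein B, at least 359-fold. *KRT25*, *KRT24*, *PRAC1*, *PF4V1*, *CXCL6*, *IGDCC3* and the noncoding gene *SFTA1P* complete the 12 genes with the highest bounds, from 333-fold to 1672-fold. In A549 the largest bounds belonged to *AKR1B10*, an aldo-keto reductase, at 17.67, 17.55 and 17.49 (at least 5287-fold higher), and *AKR1B15* (at least 3174-fold). These neighbors share most of their sequence, so the reading of *AKR1B15* is uncertain. *UCHL1*, a ubiquitin hydrolase of neurons that is used as a neuroendocrine marker, read 16.58, 16.66 and 16.67 in A549 and was not detected in SBC-3 (at least 2767-fold higher in A549). *TGFBI*, a matrix protein induced by TGF-beta, was at least 1873-fold higher in A549, *BASP1*, a growth cone protein, at least 1770-fold, and *NNMT*, which methylates nicotinamide, at least 512-fold. *C19orf33*, *ALDH3A1*, *PLAAT3*, *MALL*, *XAGE1A* and *HSPA1A* complete the 12, of which *XAGE1A* and *HSPA1A* have near-identical copies that the probes may not separate.

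Marker genes of neuroendocrine cells were called in both directions. Of 30 listed neuroendocrine transcription factors, 12 passed the filter. Of these, 6 were higher in SBC-3, 2 were higher in A549 and 4 were not called (median 1.18, or 1.12 with the genes detected in 1 line only placed at their bounds, against -0.02 over all genes tested). Among the 7 well above background on all arrays, 3 were higher in SBC-3 and 0 in A549. *NEUROD1*, the factor that defines a variant neuroendocrine subtype, read 8.73, 8.64 and 8.75 on the SBC-3 arrays and was not detected on any A549 array (at least 14.3-fold higher). *INSM1*, *ISL1*, *PROX1* and *POU2F3*, the factor of the tuft-like subtype, were well above background on 0 arrays of either line. *SOX2*, a stem cell and lineage factor, read 14.30, 14.26 and 14.25 on the SBC-3 arrays and 9.20, 9.21 and 9.13 on the A549 arrays. Its SBC-3 arrays were high and separate from A549 (34.0-fold, adjusted p = 3.01e-09). *MYT1*, a zinc finger factor of neural progenitors, was at least 4.30-fold higher in SBC-3. *FOXA2*, an endoderm factor that neuroendocrine tumors and adenocarcinomas both use, read 12.06, 12.01 and 12.07 in A549 and was not detected in SBC-3 (at least 115-fold higher in A549). *POU4F1*, a factor of sensory neurons, was at least 4.26-fold higher in A549.

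Neuroendocrine effector genes were split between the lines. Of 59 listed, 36 passed the filter, 19 were higher in SBC-3, 13 were higher in A549 and 4 were not called. Their median was 1.58, or 1.51 with bounds. Of the 16 measured in both lines, 7 were higher in SBC-3 and 5 in A549 (median 0.48). *SYP*, the synaptic vesicle protein synaptophysin, read 7.15, 7.12 and 7.16 on the SBC-3 arrays and was not detected in A549 (at least 4.83-fold higher). *BEX1*, a brain-expressed adaptor, was at least 249-fold higher in SBC-3, *NEFM*, the medium neurofilament, at least 79-fold, and *FGF9*, a fibroblast growth factor, at least 46.1-fold. In contrast *CHGA*, the secretory granule protein chromogranin A, read 8.07, 8.13 and 8.09 on the A549 arrays and 5.87, 6.56 and 6.35 on the SBC-3 arrays. It was higher on every A549 array (3.58-fold, adjusted p = 0.000129). *DLL3*, the inhibitory Notch ligand of neuroendocrine tumors, read 10.92, 10.90 and 10.84 on the A549 arrays and 8.88, 9.08 and 8.92 on the SBC-3 arrays, also higher in A549 without overlap (3.80-fold, adjusted p = 9.69e-07). *INA*, a neuronal intermediate filament, was at least 46.8-fold higher in A549, *DDC*, which forms dopamine and serotonin, at least 15-fold, and *TUBB3*, neuronal tubulin, 8.18-fold. *CHGB*, chromogranin B, was not called (5.79 ± 0.27 in SBC-3 and 5.76 ± 0.18 in A549, adjusted p = 0.878), and *NCAM1*, *GRP*, *STMN2*, *SCG3* and *ELAVL4* were detected on 0 arrays. Among the markers used for small cell cancer, *NEUROD1*, *SYP*, *SOX2* and *NEFM* were thus higher in SBC-3, while *CHGA*, *DLL3* and *UCHL1* were higher in A549. With normexp, the differences of *NEUROD1* (0.90), *SYP* (0.37), *MYT1* (0.43), *CHGA* (-0.48) and *POU4F1* (-0.40) kept their direction but were no longer called.

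**Figure D2:**
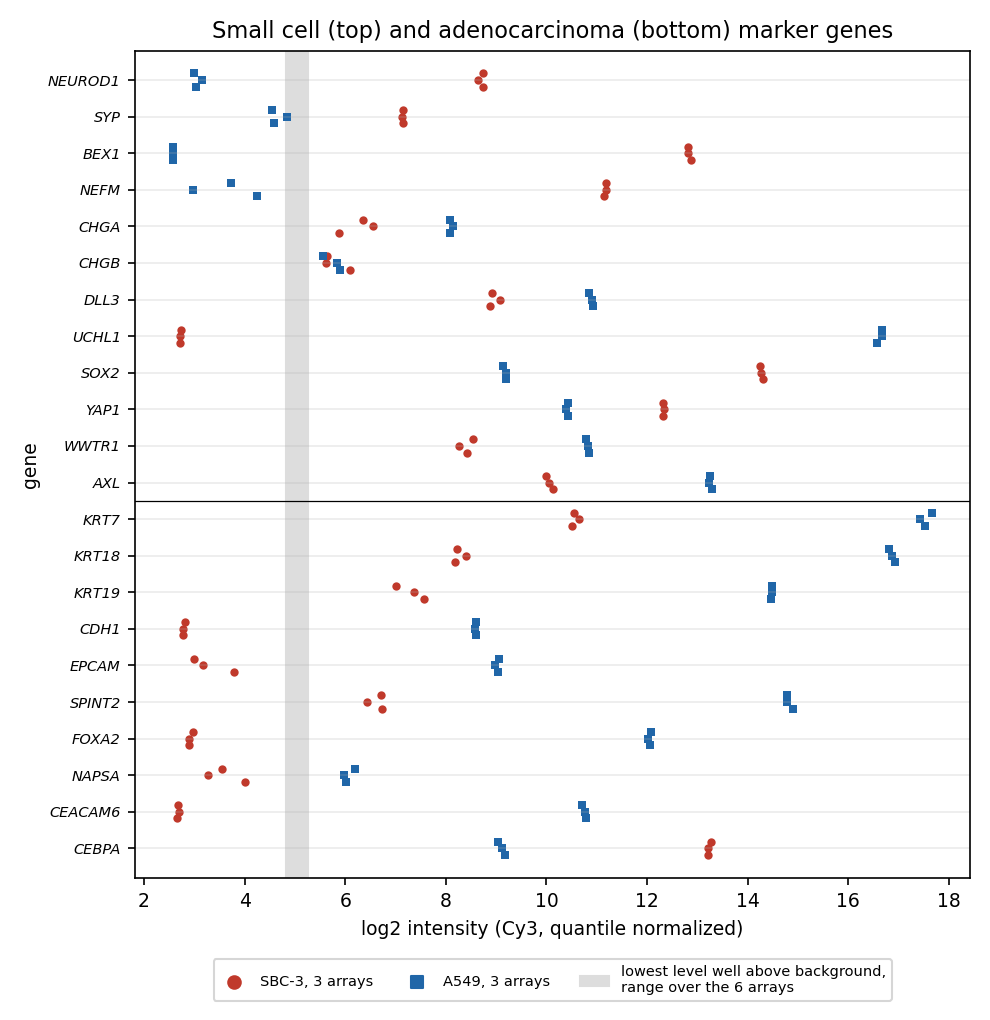
Log2 intensity (horizontal axis) of small cell marker genes (top) and adenocarcinoma marker genes (bottom) on each of the 3 SBC-3 arrays (red circles) and 3 A549 arrays (blue squares), with the lowest level well above background shaded in gray. *NEUROD1* and *BEX1* lie above the shaded range in SBC-3 only, while *UCHL1*, *KRT18* and *FOXA2* are high in A549.

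Genes of non-neuroendocrine small cell cancer were more often higher in A549. All 35 listed genes passed the filter, with 19 higher in A549, 5 higher in SBC-3 and 11 not called (median -2.41, or -1.88 with bounds). Among the 26 measured in both lines the counts were 10 and 5 (median -0.65). *YAP1*, the transcriptional effector of the Hippo pathway, went the other way from most of the list. It read 12.32, 12.34 and 12.32 on the SBC-3 arrays and 10.42, 10.38 and 10.43 on the A549 arrays, higher on all SBC-3 arrays (3.77-fold, adjusted p = 6.42e-08). Its paralog *WWTR1*, which encodes TAZ, was 5.33-fold higher in A549, as were its DNA-binding partner *TEAD1* (4.88-fold) and the receptor kinase *AXL* (9.24-fold), a target of the pathway. *CCN1* and *CCN2*, further targets, were not called, with log2 differences of -0.77 and 0.11. *AHNAK*, a scaffold of the cell cortex, was 26-fold higher in A549, and *CAV2*, a caveolin, at least 12.3-fold. Of 13 tuft-type genes 4 were tested, with 2 higher in SBC-3, *PTGS1* (at least 2.06-fold) and *INPP5D* (29.8-fold), and 1, *SOX9* (at least 2.51-fold), higher in A549 (median 1.55, or 0.80 with bounds). Measured in both lines were 2, of which 1 was higher in SBC-3 and 0 in A549 (median 2.73). *SOX9* also marks epithelial progenitors. The remaining tuft gene, *TRPM5*, was not called (0.55).

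The Notch pathway was measured with members in both directions. Of 31 listed genes, 26 were tested, 10 were higher in SBC-3, 6 in A549 and 10 were not called (median 0.35). Restricted to the 20 measured in both lines, 8 were higher in SBC-3 and 4 in A549 (median 0.40). *DLL1*, an activating ligand, was at least 11.3-fold higher in SBC-3, while *JAG1*, a ligand of another class, read 10.13, 10.08 and 10.10 on the A549 arrays and 7.03, 7.13 and 7.24 on the SBC-3 arrays. The A549 arrays were higher for *JAG1* without overlap (7.85-fold, adjusted p = 1.73e-07). The receptors *NOTCH1* (2.36-fold, but log2 0.81 and not called with its brightest probe) and *NOTCH4* (6.43-fold) were higher in SBC-3, as were *RBPJ*, the DNA-binding factor of the pathway (4.17-fold), and its target *HEY1* (6.19-fold). *HES1*, the best known target, was not called (0.43). *NUMBL*, a Notch antagonist, was 6.29-fold higher in A549.

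Most NRF2 target genes were higher in A549. Of 50 listed genes 46 were tested, and 38 were higher in A549, 2 higher in SBC-3 and 6 not called. The median difference was -3.22, or -3.15 with bounds, against -0.02 over all genes tested. Among the 35 measured in both lines, 27 were higher in A549 and 2 in SBC-3 (median -2.39). A549 is a known example of active NRF2, and the list was chosen with that knowledge and with earlier results of these data known.

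Called targets came from several branches of the program. For the supply of NADPH, *PGD*, an enzyme of the pentose phosphate pathway, read 14.49, 14.62 and 14.65 on the A549 arrays and 12.18, 12.17 and 12.24 on the SBC-3 arrays. Every A549 array was above every SBC-3 array (5.24-fold, adjusted p = 2.12e-07). *TKT*, transketolase, was 2.46-fold higher in A549, and *ME1*, malic enzyme, 9.05-fold. For glutathione and thioredoxin, *GPX2*, a glutathione peroxidase of epithelia, was at least 354-fold higher in A549. *SLC7A11*, the cystine importer, read 13.02, 12.97 and 13.03 on the A549 arrays and 8.87, 8.82 and 8.98 on the SBC-3 arrays, high in A549 without overlap (17.3-fold, adjusted p = 2.75e-08). *GCLC*, the catalytic subunit of the enzyme that limits glutathione synthesis, was 11.7-fold higher and *TXNRD1*, thioredoxin reductase, 12.2-fold. *GCLM*, the regulatory subunit of the same enzyme, differed by 0.27 and was not called. For detoxification, *NQO1*, a quinone reductase, was at least 63.8-fold higher in A549 and *AKR1C3* read 16.78, 16.65 and 16.65 on the A549 arrays and 9.42, 9.57 and 9.59 on the SBC-3 arrays. The A549 arrays were again all higher (144-fold, adjusted p = 8.41e-09), although genes of the *AKR1C* family are so alike that the probe may read several of them. The exporters *ABCC2* (at least 188-fold) and *ABCC3* (at least 94.7-fold) were higher in A549, as were *FTL*, the ferritin light chain (11.3-fold), *HMOX1*, heme oxygenase (9.57-fold), and *PIR*, an iron-binding nuclear protein (at least 410-fold). The exceptions were the glutathione transferases *GSTM3* and *GSTM4*. *GSTM3* read 15.09, 15.11 and 15.10 on the SBC-3 arrays and 11.26, 11.27 and 11.26 on the A549 arrays, higher in SBC-3 without overlap (14.3-fold, adjusted p = 3.34e-09).

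Of 13 genes that regulate NRF2, 11 were tested, 5 were higher in A549 and 0 in SBC-3 (median -0.84). The 8 measured in both lines held 0 higher in SBC-3 and 3 higher in A549 (median -0.61). The probe of *NFE2L2* itself was not well above background on any array, so its level is not given. *SQSTM1*, the autophagy receptor that binds KEAP1, was 14.6-fold higher in A549, and *MAFK* and *MAFG*, the small partners of NRF2 on DNA, 7.53-fold and 3.29-fold. *KEAP1* differed by -0.84 and was not called.

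**Figure D3:**
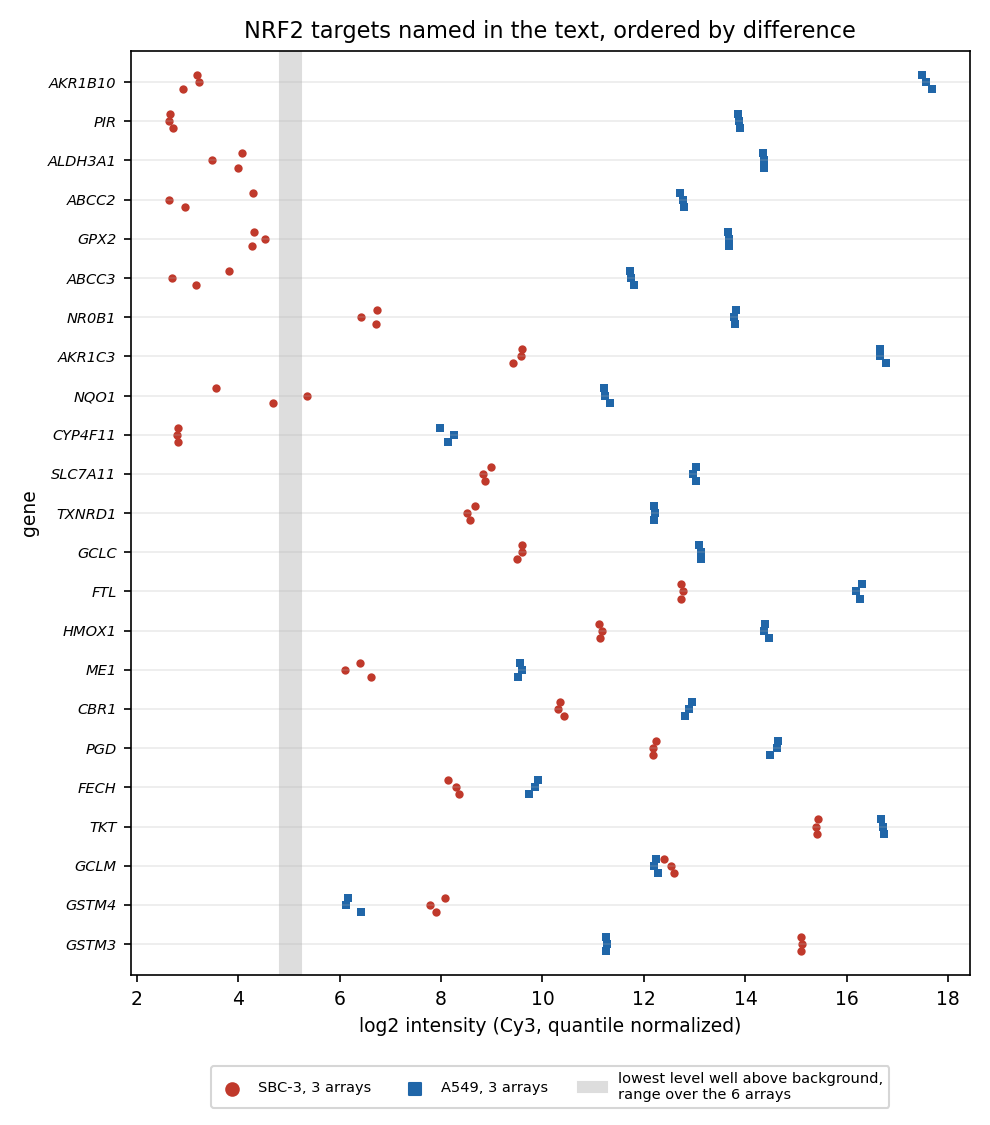
Log2 intensity (horizontal axis) of the tested NRF2 targets named in the text, ordered by difference, on each of the 3 SBC-3 arrays (red circles) and 3 A549 arrays (blue squares), with the lowest level well above background shaded in gray. Genes from *AKR1B10* at the top down were higher in A549, *GCLM* was not called, and *GSTM4* and *GSTM3* at the bottom were higher in SBC-3.

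Promoter sequences are shown for members of this list because the antioxidant response element, to which NRF2 binds, is a short motif. The core TGACNNNGC was searched on both strands of the 300 bases from 250 before to 50 after each gene start, as given by RefSeq on build GRCh38.p14. It was present in 3702 of 27305 promoters (13.6%) and in 14.9% of the promoters of tested genes. Of the 46 tested NRF2 targets 34 had a promoter entry, and 9 of these held the motif. Among those called higher in A549 it was 8 of 28 (28.6%), namely *CBR1*, *CYP4F11*, *FECH*, *GPX2*, *ME1*, *PGD*, *PIR* and *TXNRD1*. The ninth was *GCLM*. A match describes the letters only and does not show binding. The sequences of *GPX2* (chr14:64942696-64942995, minus strand), *ME1* (chr6:83431002-83431301, minus strand) and *TXNRD1* (chr12:104215529-104215828, plus strand) follow 5′ to 3′ along the gene, with the motif in capitals. Where it lies on the opposite strand, as in *GPX2*, the capitals read as its reverse complement.
GPX2: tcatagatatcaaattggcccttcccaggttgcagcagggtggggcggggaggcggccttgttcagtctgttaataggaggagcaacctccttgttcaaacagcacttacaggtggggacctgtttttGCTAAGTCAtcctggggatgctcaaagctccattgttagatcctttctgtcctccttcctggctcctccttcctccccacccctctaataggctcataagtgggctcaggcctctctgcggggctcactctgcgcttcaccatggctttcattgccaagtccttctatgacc
ME1: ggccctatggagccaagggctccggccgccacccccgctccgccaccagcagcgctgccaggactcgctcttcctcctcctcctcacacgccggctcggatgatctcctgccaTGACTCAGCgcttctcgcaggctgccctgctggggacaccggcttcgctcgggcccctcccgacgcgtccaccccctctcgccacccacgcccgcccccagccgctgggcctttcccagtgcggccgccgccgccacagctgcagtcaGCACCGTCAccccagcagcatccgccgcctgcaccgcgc
TXNRD1: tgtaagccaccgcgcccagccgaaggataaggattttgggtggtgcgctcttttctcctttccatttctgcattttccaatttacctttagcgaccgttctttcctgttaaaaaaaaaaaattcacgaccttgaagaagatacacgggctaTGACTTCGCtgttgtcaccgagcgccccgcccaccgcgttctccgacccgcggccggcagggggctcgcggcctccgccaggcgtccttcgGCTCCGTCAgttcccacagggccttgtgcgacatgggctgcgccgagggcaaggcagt

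Epithelial genes were more often higher in A549 than in SBC-3. Of 44 listed adhesion and junction genes, 30 were tested, 17 were higher in A549, 4 in SBC-3 and 9 were not called (median -1.66, or -1.44 with bounds). Among the 15 measured in both lines, 6 were higher in A549 and 2 in SBC-3 (median -0.59). *CDH1*, which encodes E-cadherin, read 8.60, 8.57 and 8.59 in A549 and was not detected in SBC-3 (at least 10.5-fold higher in A549). *EPCAM*, an epithelial adhesion molecule, was at least 14.1-fold higher in A549, *CLDN2*, a pore-forming claudin, at least 49.8-fold, and *DSG2*, a desmosomal cadherin, at least 7.22-fold. The claudin *CLDN7* ran the other way (9.78-fold higher in SBC-3), as did *CDH3*, which encodes P-cadherin (at least 9.70-fold). *ELF3*, an epithelial transcription factor, was 24.9-fold higher in A549.

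Listed keratins, the intermediate filaments of epithelia, were more often higher in A549, while neighboring keratins outside the list were higher in SBC-3 and are described with chromosome 17 below. Of 27 listed keratins, 12 were tested, 8 were higher in A549 and 2, *KRT17* and *KRT24*, in SBC-3 (median -3.73, or -3.29 with bounds). Of the 8 measured in both lines, 6 were higher in A549 and 0 in SBC-3. The simple keratin *KRT18* read 16.92, 16.87 and 16.80 on the A549 arrays and 8.17, 8.40 and 8.22 on the SBC-3 arrays. Its levels were high in A549 and did not overlap (388-fold, adjusted p = 5.65e-09). *KRT7*, a keratin of glandular cells, was 126-fold higher in A549 and *KRT19* 143-fold. *KRT17* was not called in Cy5 or with normexp. *KRT81* was 53.7-fold higher, though its probe may also read its near copy *KRT86*.

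Mesenchymal genes were divided between the lines rather than shifted as a whole. Of 40 listed, 32 were tested, 12 were higher in SBC-3, 15 in A549 and 5 were not called (median -0.79, or -0.46 with bounds). With both lines measured, as for 17 genes, 6 were higher in SBC-3 and 7 in A549 (median -0.77). *VIM*, which encodes vimentin, read 16.40, 16.36 and 16.39 on the A549 arrays and 12.56, 12.46 and 12.50 on the SBC-3 arrays. It was higher on every A549 array (14.7-fold, adjusted p = 1.1e-08). The repressor of E-cadherin *SNAI2* was at least 88.0-fold higher in SBC-3, while *SNAI1*, its relative, was 6.57-fold higher in A549. *ZEB1* and *ZEB2*, repressors of the same gene, were not called (0.62 and 0.22), though in Cy5 *ZEB2* passed the rule as higher in SBC-3 (1.94). The matrix proteins *SPARC* (17.1-fold) and *COL6A1* (5.58-fold) and the fibrillar collagen *COL1A2* (at least 13.6-fold) were higher in SBC-3, as were *CDH11*, a mesenchymal cadherin (at least 23.6-fold), and *LOX*, a collagen crosslinking enzyme (at least 12.9-fold). *S100A4*, a calcium-binding protein of motile cells, was 20.9-fold higher in A549.

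Integrins, the receptors for the matrix, were more often higher in A549, while the sign of the median of basement membrane genes differed with the filter. Of 25 integrin genes, 17 were tested, 9 were higher in A549 and 5 in SBC-3 (median -1.22). For 9 members both lines were measured, with 2 higher in SBC-3 and 5 in A549 (median -1.22). The laminin receptor chain *ITGA3* read 11.48, 11.48 and 11.51 on the A549 arrays and 7.05, 7.29 and 7.09 on the SBC-3 arrays. A549 was higher on each array (20.3-fold, adjusted p = 6.78e-08). Its partner *ITGB1* was 5.30-fold higher in A549, and *ITGB4*, the hemidesmosome chain, at least 75.6-fold. The muscle-type chain *ITGA7* (9.64-fold) and *ITGA4*, a leukocyte and neural crest chain (at least 2.63-fold), were higher in SBC-3. Of 24 laminins and basement membrane collagens, 20 were tested, 8 were higher in A549 and 3 in SBC-3 (median -0.73, or -0.55 with bounds). Of the 10 measured in both lines, 2 were higher in SBC-3 and 1 was higher in A549 (median 0.53). These counts lay near the shares of all genes measured in both lines (16.2% and 13.6%). *LAMB3*, a chain of laminin-332, was at least 36.2-fold higher in A549 and *COL4A5*, a chain of type IV collagen, at least 45.3-fold. *COL17A1*, a hemidesmosomal collagen, read 11.65, 11.67 and 11.66 in SBC-3 and was not detected in A549 (at least 111-fold higher in SBC-3).

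HOX genes, which encode the positional transcription factors of the body axis, differed by cluster and by place within it. Of 39 listed, 32 were tested, 17 were higher in SBC-3, 8 in A549 and 7 were not called (median 1.44, or 1.21 with bounds). Of the 20 measured in both lines, 9 were higher in SBC-3 and 4 in A549. In the HOXB cluster 7 of 9 tested genes were higher in SBC-3 and 0 in A549, with a median of 2.93. *HOXB4* read 11.85, 11.92 and 11.83 on the SBC-3 arrays and 6.29, 6.09 and 5.62 on the A549 arrays, and *HOXB13*, the last gene of the cluster, 13.42, 13.39 and 13.42 on the SBC-3 arrays and 9.97, 9.99 and 9.91 on the A549 arrays. Both were higher on every SBC-3 array (adjusted p = 7.46e-07 and 1.27e-08). In HOXD 5 of 6 tested genes were higher in SBC-3, among them *HOXD10* (35.0-fold) and *HOXD11* (at least 14.7-fold), and *HOXD8* was higher in A549 (at least 3.93-fold). HOXA was split by position, with *HOXA4* (at least 3.55-fold), *HOXA5* (8.59-fold) and *HOXA6* (at least 3.46-fold) higher in A549 and *HOXA9*, with some probes near background, *HOXA10* (3.94-fold) and *HOXA11* (at least 58.2-fold) higher in SBC-3. The *HOXA10* probes differed by 3.56 and 0.39, and with the latter, the brightest, it was not called. With normexp, *HOXA4* (-0.42), *HOXA5* (-0.93), *HOXA6* (-0.33), *HOXA9* (0.70) and *HOXA10* (0.91) were not called, so the split of HOXA depends on the processing. *HOXB8*, *HOXC8*, *HOXC10*, *HOXD8* and *HOXD11* lost their calls there too. HOXC was also split. *HOXC4* (6.96-fold), *HOXC6* (3.98-fold), *HOXC9* (5.66-fold) and *HOXC8*, which was well above background on only some SBC-3 arrays, were higher in A549, and *HOXC10* (at least 2.45-fold) and *HOXC12* (at least 25.5-fold) in SBC-3.

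**Figure D4:**
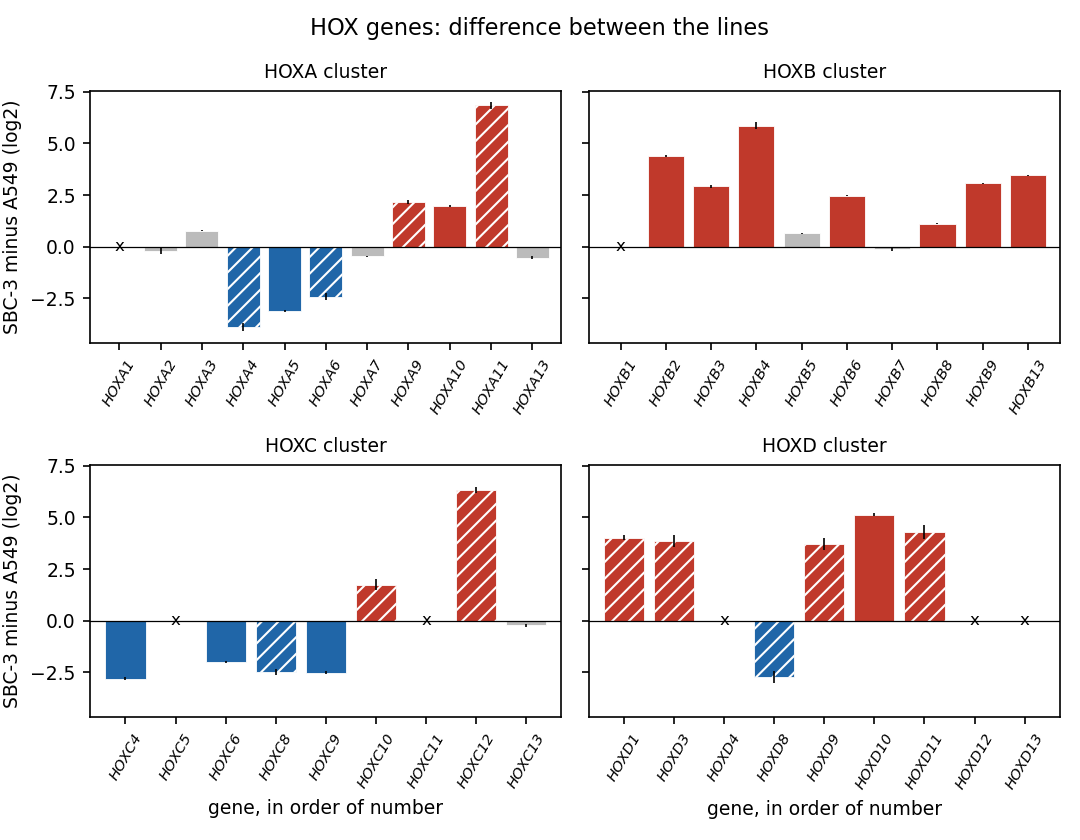
Log2 difference (SBC-3 minus A549, vertical axis) of each HOX gene with its SE over 3 arrays a line, by cluster and gene number. Called genes are red (higher in SBC-3) or blue (higher in A549), gray genes were not called, hatched genes were not well above background on all 6 arrays in every counted probe, and an x marks a gene that was not tested. The 9 tested HOXB genes hold 7 red bars, and HOXA and HOXC change color along the cluster.

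Genes called in the same direction also lay side by side on the chromosomes. The order of genes was taken from RefSeq (GRCh38.p14), and the runs described here were chosen after their values were seen. Of 13056 tested protein-coding genes in order, 31 runs of at least 5 consecutive genes were higher in SBC-3 and 30 in A549. The longest runs, of 14 genes each, were both zinc finger clusters on chromosome 19. The run from *ZNF14* to *ZNF100* had a median log2 difference of 2.33 with undetected genes placed at their bounds, and 7 of its genes were measured in both lines. For the run from *ZNF610* to *ZNF677* these values were 2.51 and 3. With normexp, 8 and 2 of the 14 genes were still called, and *ZNF14* was not called without A549 replicate 2 (0.96), nor *ZNF600* without SBC-3 replicate 1. In Cy5, 13 of the 14 genes of the run from *ZNF610* were called. The length of these runs therefore depends on the processing and the channel. A further run of 9 zinc finger genes from *ZNF676* to *ZNF681* had a median of 2.05 with bounds, and a run of 8 from *ZNF433* to *ZNF442* of 2.55, with 3 and 1 genes still called with normexp. Measured in both lines were 4 of these 9 genes and 2 of these 8. In the run from *ZNF14*, *ZNF626* read 11.15, 11.15 and 11.20 on the SBC-3 arrays and 7.84, 7.93 and 7.90 on the A549 arrays. The SBC-3 arrays were higher without overlap (9.69-fold, adjusted p = 1.91e-08). These genes encode DNA-binding proteins, many of which repress retroelements, and their sequences are alike, so that a probe may read a neighbor. Over the whole of chromosome 19, 88 of 202 tested zinc finger genes (43.6%) were higher in SBC-3 and 12 in A549, with a median of 0.73. The remaining protein-coding genes of that chromosome had 157 of 794 (19.8%) higher in SBC-3 and 156 in A549. Zinc finger genes on other chromosomes leaned to SBC-3 as well, with 69 of 209 (33%) against 10 and a median of 0.50. Counted only among those well above background on all arrays, 38 of 139 on chromosome 19 were higher in SBC-3 and 6 in A549 (median 0.36), and 52 of 179 on other chromosomes were higher in SBC-3 and 5 in A549 (median 0.45). Among genes measured in both lines, zinc finger genes on chromosome 19 thus had no higher share than those on other chromosomes. Of the other protein-coding genes of chromosome 19 measured in both lines, 110 of 664 were higher in SBC-3 and 103 in A549.

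Further runs are given as examples. On chromosome 17 the 8 neighbors from *CCR7* to *KRT28* were all higher in SBC-3. *CCR7*, a chemokine receptor of lymphocytes, read 14.45, 14.38 and 14.44 on the SBC-3 arrays and 8.33, 8.40 and 8.32 on the A549 arrays, high in SBC-3 on every array (67.3-fold, adjusted p = 2.3e-09). Beside it lay *SMARCE1* (3.13-fold), *KRT222* (83.1-fold) and the hair follicle and epidermal keratins *KRT24* (at least 802-fold), *KRT25* (at least 1672-fold), *KRT26* (at least 24.5-fold), *KRT27* (at least 37.3-fold) and *KRT28* (at least 44.5-fold). The flanking gene *TNS4*, a tensin of focal adhesions, was 16-fold higher in A549, and *KRT10* on the other side was not called (0.83). On the same chromosome the stretch from *HOXB8* to *TTLL6* was a run of 6, which includes *PRAC1*, a small nuclear protein of prostate and colon (at least 731-fold), and 3 of the 6 were called with normexp. Without the filter on dim probes *TTLL6* was not called (0.99). On chromosome 12 a run of 11 from *TAC3* to *R3HDM2* had a median of 1.76 with bounds, with 5 genes called with normexp. The run was broken with 75th percentile scaling, where *NEMP1* and *R3HDM2* (0.88) were not called, with no filter, where *STAC3* was not, and in Cy5, where *MYO1A* and *R3HDM2* (0.97) were not. Among runs toward A549, the 9 genes from *CASD1* to *PDK4* on chromosome 7 included *PEG10*, an imprinted gene derived from a retrotransposon (at least 70.1-fold), *SGCE*, its imprinted neighbor (at least 148-fold), and the paraoxonase *PON3* (at least 188-fold). Its first gene, *CASD1*, was not called without SBC-3 replicate 1 (-0.99) or in Cy5 (-0.67), and 5 of the 9 were called with normexp. Only 1 of the 9 was measured in both lines. With only probes well above background on all 6 arrays, 3 of the 9 were called. Also on chromosome 7 the 5 neighbors *MDFIC*, *TES*, *CAV2*, *CAV1* and *MET* were higher in A549. In SBC-3 *MDFIC* (at least 12.5-fold), *TES* (at least 13.4-fold) and *CAV2* (at least 12.3-fold) were not detected, and *CAV1* was well above background on only some arrays. *MET*, the receptor of hepatocyte growth factor, read 14.39, 14.57 and 14.59 on the A549 arrays and 8.34, 8.21 and 8.37 on the SBC-3 arrays, with no overlap (73.9-fold, adjusted p = 2.08e-08).

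Whole chromosomes were shifted by less. Over genes well above background on all arrays, the median difference was highest on chromosomes 21 (0.54), 1 (0.48) and 22 (0.44), and among the autosomes it was lowest on chromosomes 2 (-0.32), 17 (-0.32) and 20 (-0.28), against 0.05 over all such genes. On chromosome 1, 27.9% of these genes were higher in SBC-3 and 8.39% in A549. On chromosome 20 the shares were 9.37% and 19.9%. Chromosome X had a median of -0.32, with 8.12% higher in SBC-3 and 19.6% in A549. DNA copy number was not measured, and its part in these shifts was not tested.

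Chemokines that attract neutrophils were higher in SBC-3 as another run, of 10 neighbors on chromosome 4. *CXCL1* read 13.89, 13.88 and 13.91 on the SBC-3 arrays and 9.04, 8.93 and 8.96 on the A549 arrays. All SBC-3 arrays were higher (30.2-fold, adjusted p = 4.56e-09). *CXCL6* was at least 333-fold higher in SBC-3, *CXCL8*, which encodes interleukin-8, at least 22.2-fold, and the platelet factor variant *PF4V1* at least 402-fold. *CXCL2* (4.60-fold), *CXCL3* (11-fold) and *CXCL5* (2.60-fold) were also higher. *PF4*, *PPBP* and *MTHFD2L* complete the run, and the genes of this cluster are partly alike in sequence. In the list of 28 cytokines and chemokines, 14 were tested, 7 were higher in SBC-3 and 3 in A549 (median 0.85, or 0.61 with bounds). Measured in both lines were 8, of which 4 were higher in SBC-3 and 0 in A549 (median 0.85). The members of the list higher in A549 were *CCL2*, which attracts monocytes (at least 28.8-fold), *IL18* (at least 36.1-fold) and *LIF*.

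Interferon-stimulated genes were high in either line, according to the gene. Of 44 listed, 36 were tested, 14 were higher in SBC-3, 11 in A549 and 11 were not called (median 0.02). Of the 19 measured in both lines, 8 were higher in SBC-3 and 2 in A549. *IFIT1*, which binds viral RNA, read 14.41, 14.48 and 14.43 on the SBC-3 arrays and 7.07, 7.31 and 7.10 on the A549 arrays, high in SBC-3 without overlap (155-fold, adjusted p = 1.14e-08). Its relatives *IFIT3* (13.5-fold) and *IFIT5* (6.37-fold), the membrane proteins *IFITM2* (4.71-fold) and *IFITM3* (15.4-fold), *IFI44L* (at least 44.8-fold) and the tether of budding virus *BST2* (at least 16.7-fold) were also higher in SBC-3. *ISG20*, an exonuclease of RNA, read 12.09, 12.16 and 12.16 on the A549 arrays and 8.46, 8.68 and 8.86 on the SBC-3 arrays. It was higher on all A549 arrays (11.1-fold, adjusted p = 7.58e-07), as were the RNA sensors *OAS1* (at least 5.32-fold) and *OAS3* (at least 4.98-fold) and the negative regulator *USP18* (at least 10.5-fold).

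Genes of antigen presentation by MHC class I were called about as often as other genes. All 22 listed genes were tested, of which 4 were higher in SBC-3, 5 in A549 and 13 were not called (median 0.07), shares close to those over all genes tested (20.4% and 20.7%). Restricted to the 19 measured in both lines, 4 were higher in SBC-3 and 3 in A549 (median 0.13). The immunoproteasome subunits *PSMB8* (at least 8.36-fold) and *PSMB9* (4.07-fold) were higher in A549. *B2M*, the common light chain, read 12.99, 12.96 and 12.95 on the SBC-3 arrays and 12.52, 12.50 and 12.54 on the A549 arrays, and was not called (0.45). *HLA-C* was 4.69-fold higher in SBC-3, but class I genes vary between people and a probe may bind alleles unequally.

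Receptor tyrosine kinases differed in which members were expressed. Of 51 listed, 32 were tested, 13 were higher in SBC-3, 10 in A549 and 9 were not called (median 0.77). The 17 measured in both lines held 4 higher in SBC-3 and 5 higher in A549 (median 0.37). Toward A549 stood *MET*, *MST1R*, the receptor of macrophage-stimulating protein (at least 11-fold), *NTRK3*, a neurotrophin receptor (at least 18-fold), *ERBB3* (at least 2.02-fold) and *FGFR1* (3.40-fold). Toward SBC-3 stood *EPHB3*, an ephrin receptor (13.4-fold), *MERTK* (3.51-fold) and *TYRO3* (3.33-fold), which belong to the family of *AXL*, *FGFR2* (at least 3.68-fold) and the Wnt receptor *ROR2* (at least 9.19-fold). *EGFR* was called higher in A549, but its probes were not all detected in SBC-3, so that only the direction is given. *KIT* and *RET* did not pass the filter.

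Most proliferation genes were detected in both lines and were not called, and the called G2/M and mitosis genes were mostly higher in A549. Of all genes measured in both lines, 16.2% were higher in SBC-3 and 13.6% in A549. Of 34 G2/M and mitosis genes, 33 were tested, 12 were higher in A549, 2 in SBC-3 and 19 were not called (median -0.73). *MKI67*, the proliferation antigen, read 10.58, 10.60 and 10.56 on the A549 arrays and 9.16, 9.30 and 9.23 on the SBC-3 arrays. It was higher on each A549 array (2.55-fold, adjusted p = 1.04e-06). *AURKA*, a mitotic kinase, was 3.21-fold higher in A549 and *CENPA*, the histone of centromeres, 4.21-fold. *NDC80* (2.70-fold) and *KIF2C* (2.10-fold), which act at the kinetochore, were higher in SBC-3, but *KIF2C* was not called with 75th percentile scaling (0.77), with normexp or in Cy5 (0.90). Of 42 S phase genes, 41 were tested, 7 were higher in A549, 1, *GINS4* (not called with 75th percentile scaling), in SBC-3 and 33 were not called (median -0.16). All 41 were measured in both lines. The S phase share toward A549 lay near that of all such genes, and the share toward SBC-3 under it. *PCNA*, the sliding clamp of DNA polymerase, was 2.90-fold higher in A549.

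Genes of the RB pathway were called no more often than other genes, though some cell cycle inhibitors were among those called. Of 28 genes of the RB pathway, 26 were tested, 4 were higher in SBC-3, 5 in A549 and 17 were not called (median -0.17), against 20.4% and 20.7% over all genes tested. With both lines measured, as for 24 genes, 3 were higher in SBC-3 and 4 in A549 (median -0.17). *RB1*, which small cell tumors usually lose, read 10.49, 10.42 and 10.40 on the SBC-3 arrays and 10.65, 10.62 and 10.64 on the A549 arrays, and was not called (-0.20). *CDKN1B*, the inhibitor p27, was 3.39-fold higher in SBC-3 beside *CDKN1C*, and *CDKN2C*, the inhibitor p18, 3.23-fold higher in A549. *CCND3*, a D-type cyclin, was 3.99-fold higher in A549 and *E2F1* 3.76-fold, while *E2F3* was 2.61-fold higher in SBC-3. *CCND1* did not differ by the rule (-0.01).

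The probes of *CDKN2A* and of its neighbor *MTAP*, which salvages methionine, did not read alike. A *CDKN2A* probe was well above background on every SBC-3 array and on no A549 array, while the other read 9.54 in A549 and differed by 0.66. For *MTAP*, 2 of 3 probes were well above background on every SBC-3 array and on no A549 array, while the remaining probe differed by -1.83. The call of each gene therefore depends on the probe. Of 16 genes of this neighborhood on chromosome 9, 11 were tested, 2 were higher in SBC-3, those same genes, and 3 in A549 (median -0.17). None of the 6 measured in both lines was called. Those higher in A549 were *IFNE*, an interferon gene beside *MTAP* (at least 2.89-fold), *HACD4* (at least 5.47-fold) and *MLLT3*, which was well above background on only some SBC-3 arrays. *KLHL9* (-0.34) and *CAAP1* (0.48) were among the genes not called.

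Targets of p53 were called higher in SBC-3 more often than other genes, and higher in A549 about as often. Of 39 listed, 38 were tested, 15 were higher in SBC-3, 8 in A549 and 15 were not called (median 0.49), against 20.4% and 20.7% of all genes tested. For 31 members both lines were measured, with 11 higher in SBC-3 and 5 in A549 (median 0.46). *CDKN1A*, the best known target, read 6.93, 6.66 and 6.90 on the SBC-3 arrays and 7.24, 7.09 and 6.96 on the A549 arrays. It was not called (-0.27), nor was *GDF15* (0.09). *MDM2*, the ligase of p53, was 2.65-fold higher in SBC-3, *SESN2*, a stress sensor, 14.7-fold, and *BTG2*, an antiproliferative protein, 5.51-fold. *PLK2*, a polo-like kinase, was at least 216-fold higher in A549, and *TIGAR*, which restrains glycolysis, 3.70-fold. In the BCL2 family of 21 genes, 19 were tested, 3 were higher in SBC-3 and 5 in A549 (median -0.42, or 0.07 in Cy5), shares near the 20.4% and 20.7% of all genes tested. Measured in both lines were 15, of which 1 was higher in SBC-3 and 4 in A549 (median -0.42). *BCL2L1*, which encodes the survival protein BCL-XL, was 3.96-fold higher in A549, and *BIK*, a killer protein, 3.86-fold higher in SBC-3. *MCL1* was not called (0.39).

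Of 13 genes of the MYC network, 12 were tested, 2 were higher in SBC-3 and 0 in A549 (median 0.04). Restricted to the 10 measured in both lines, 2 were higher in SBC-3 and 0 in A549 (median 0.04). *MYC* read 12.85, 12.81 and 12.81 on the SBC-3 arrays and 12.60, 12.60 and 12.67 on the A549 arrays and was not called (0.20). *MYCL*, which is amplified in some small cell tumors, read 9.39, 9.39 and 9.33 on the SBC-3 arrays and 6.40, 6.45 and 6.79 on the A549 arrays. It was higher in SBC-3 without overlap (7.09-fold, adjusted p = 2.09e-06), as was *MXD1*, an antagonist of MYC (6.34-fold), and *MYCN* was not detected.

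Chromatin remodelers of the SWI/SNF complex included a wide difference in a catalytic subunit. *SMARCA4*, the ATPase BRG1, read 14.40, 14.43 and 14.42 on the SBC-3 arrays and 10.97, 10.99 and 10.92 on the A549 arrays. The SBC-3 arrays were higher throughout (11-fold, adjusted p = 1.1e-08). *SMARCA2*, the alternative ATPase, was at least 4.75-fold higher in A549. Of 25 subunits, 23 were tested, 8 were higher in SBC-3, 2 in A549 and 13 were not called (median 0.48). The 21 measured in both lines held 8 higher in SBC-3 and 1 higher in A549 (median 0.48). *ARID1A*, a DNA-binding subunit, was 2.45-fold higher in SBC-3 and *DPF1*, a subunit of the neuronal complex, 3.23-fold. Of 28 polycomb and DNA methylation genes, 25 were tested, 6 were higher in SBC-3 and 2 in A549 (median 0.36), the former near the share of all genes tested (20.4%) and the latter under it (20.7%). With both lines measured, as for 22 genes, 4 were higher in SBC-3 and 2 in A549 (median 0.31). *EZH2*, the histone methyltransferase that is high in small cell tumors, was not called (0.56), *MTF2*, its accessory subunit, was 3.96-fold higher in SBC-3 and *PCGF5* was 14.1-fold higher in A549.

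Lung lineage genes were called equally often in each direction. Of 44 alveolar and airway genes, 25 were tested, 7 were higher in SBC-3, 7 in A549 and 11 were not called (median 0.16, or -0.10 in Cy5), beside 20.4% and 20.7% of all genes tested. For 15 members both lines were measured, with 4 higher in SBC-3 and 2 in A549 (median 0.29). *NKX2-1*, the lung lineage factor, and the surfactant genes *SFTPB* and *SFTPC* did not pass the filter. *NAPSA*, the protease napsin A, read 6.03, 5.97 and 6.19 in A549 and was not detected in SBC-3 (at least 1.82-fold higher in A549, a bound under the fold limit, so its call rests on values near background). *FOXA1* (at least 8.72-fold), the adhesion molecule *CEACAM6* (at least 46.9-fold) and *AGR2*, a folding enzyme of mucous cells (8.81-fold), were higher in A549. The size differed between the channels. For *CEACAM6* the difference was -8.08 in Cy3 and -2.57 in Cy5, where the A549 arrays read 4.10, 6.42 and 4.03. For *FOXA1* it was -5.06 and -2.98. Dye and treatment cannot be told apart there. *CEBPA*, a factor of alveolar and liver cells, read 13.21, 13.21 and 13.27 on the SBC-3 arrays and 9.17, 9.12 and 9.04 on the A549 arrays. It was higher on every SBC-3 array (17.4-fold, adjusted p = 1.86e-08). Of 25 squamous genes 9 were tested, with 5 higher in SBC-3 and 0 in A549 (median 1.80), among them *SOX2* and *SERPINB5*, a serpin of squamous and basal cells (at least 9.67-fold), while *KRT5* and *DSG3* were not detected. Measured in both lines were 6, of which 2 were higher in SBC-3 and 0 in A549 (median 0.32).

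The direction of liver-type genes differed with the filter. Of 49 listed, 23 were tested, 12 were higher in A549 and 6 in SBC-3 (median -2.0, or -0.57 with bounds). Among the 8 measured in both lines it was the other way, with 4 higher in SBC-3 and 1 in A549 (median 1.06). The fibrinogen chains *FGB* (at least 6.45-fold) and *FGG* (at least 16.3-fold), *APOH*, a plasma glycoprotein (at least 25.2-fold), and *CYP24A1*, which degrades vitamin D (at least 152-fold), were higher in A549. *APOE* read 14.11, 14.18 and 14.16 on the SBC-3 arrays and 10.87, 10.90 and 10.87 on the A549 arrays. Its levels were higher in SBC-3 on every array (9.65-fold, adjusted p = 1.22e-08), as were those of *F2*, which encodes prothrombin (13.4-fold). Of 19 aldehyde dehydrogenases, 17 were tested, 7 were higher in A549 and 4 in SBC-3 (median -0.02). Restricted to the 12 measured in both lines, 2 were higher in SBC-3 and 4 in A549 (median -0.01). *ALDH3A1* (at least 570-fold) and *ALDH1A3* (at least 29.1-fold) were higher in A549, and *ALDH6A1*, of branched-chain amino acid breakdown, was 8.52-fold higher in SBC-3.

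Cancer-testis antigen genes, which are silent in most adult tissues, were measured for 7 of 46 listed. Of these 4 were higher in A549 and 0 in SBC-3 (median -2.85, or -2.79 with bounds), among them *PRAME* (at least 34.0-fold), *XAGE1A* (at least 991-fold) and *MAGEA12* (at least 6.93-fold, not called in Cy5 or with normexp). Of the 3 measured in both lines 1 was higher in A549 (median -0.12). In Cy5, 2 were higher in SBC-3 and 2 in A549 (median -0.22). *XAGE1A* and *MAGEA12* belong to families of near-identical genes that a probe may not separate.

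Many marker genes of other cell types did not pass the filter. Of 24 leukocyte markers 10 were tested, 3 were higher in each line and 4 were not called (median -0.17), with *CD14* at least 18-fold higher in A549 and *CD163* and *MS4A1* undetected. The 4 measured in both lines held 1 higher in SBC-3 and 0 higher in A549 (median 0.15). Of 14 endothelial markers 3 were tested, 1 higher in SBC-3 and 2 in A549 (median -1.90). *CLDN5* and *PECAM1* were undetected. Of 12 fibroblast markers 6 were tested, 3 higher in SBC-3 and 1 in A549 (median 1.85), and *DCN* and *LUM* were undetected. With both lines measured, as for 2 genes, 2 were higher in SBC-3 and 0 in A549 (median 4.57). Housekeeping reference genes served as a check on scale. Of 30 listed 29 were tested, 1 was higher in SBC-3, 2 were higher in A549 and 26 were not called (median 0.09). *TFRC*, the transferrin receptor, was the widest of them (4.99-fold higher in A549), and *GAPDH* differed by -0.86.

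The red channel of the same arrays held RNA of treated cells of the same lines, so it was asked which line differences were measured there too. The channels share slide and spots, and the red groups also differ in treatment. Within SBC-3, whose red channels held 3 different siRNAs, levels differed from array to array with an SD of 0.374 to 0.499, against 0.127 to 0.172 within A549. By the same rule 2886 genes (19.6%) were higher in SBC-3 and 2824 (19.2%) in A549. Of the 3003 genes higher in untreated SBC-3, 2499 were also called in the red channel, which is 83.2% of the green list and 86.6% of the red. Of the 3049 genes higher in untreated A549, 2494 were, or 81.8% of the green list and 88.3% of the red. Across genes the differences in the channels had a Pearson r of 0.964, or 0.935 over genes well above background on all 6 arrays. Genes are not independent replicates, and this is a description.

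The genes targeted in the treated cells differed between the channels. *DONSON*, a replication fork protein, read 9.46, 9.49 and 9.44 on the SBC-3 arrays and 8.43, 8.52 and 8.66 on the A549 arrays in the untreated RNA. SBC-3 was the higher line without overlap, but under the fold limit (log2 0.92 ± 0.06, adjusted p = 2.74e-05). In Cy5, after the siRNAs, it read 7.23, 7.62 and 7.26 on the SBC-3 arrays and 8.55, 8.70 and 8.54 on the A549 arrays, the opposite order. *LOXL2*, a lysyl oxidase-like enzyme of collagen crosslinking, read 13.12, 13.10 and 13.11 on the A549 arrays and 10.45, 10.49 and 10.47 on the SBC-3 arrays untreated. A549 was higher on all arrays (6.24-fold, adjusted p = 1.86e-08). In Cy5, after the editing, it read 10.70, 10.52 and 10.59 on the A549 arrays and 9.61, 11.07 and 10.68 on the SBC-3 arrays. *HELLS*, a chromatin remodeler, differed by -0.54 and was not called. Only 4 genes were called in both channels with opposite signs, *ACKR3*, *CYP26A1*, *MAGEA6* and *POTEB3*. They were named after their values were seen, and *POTEB3* was not well above background on any SBC-3 array in Cy3.

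**Figure D5:**
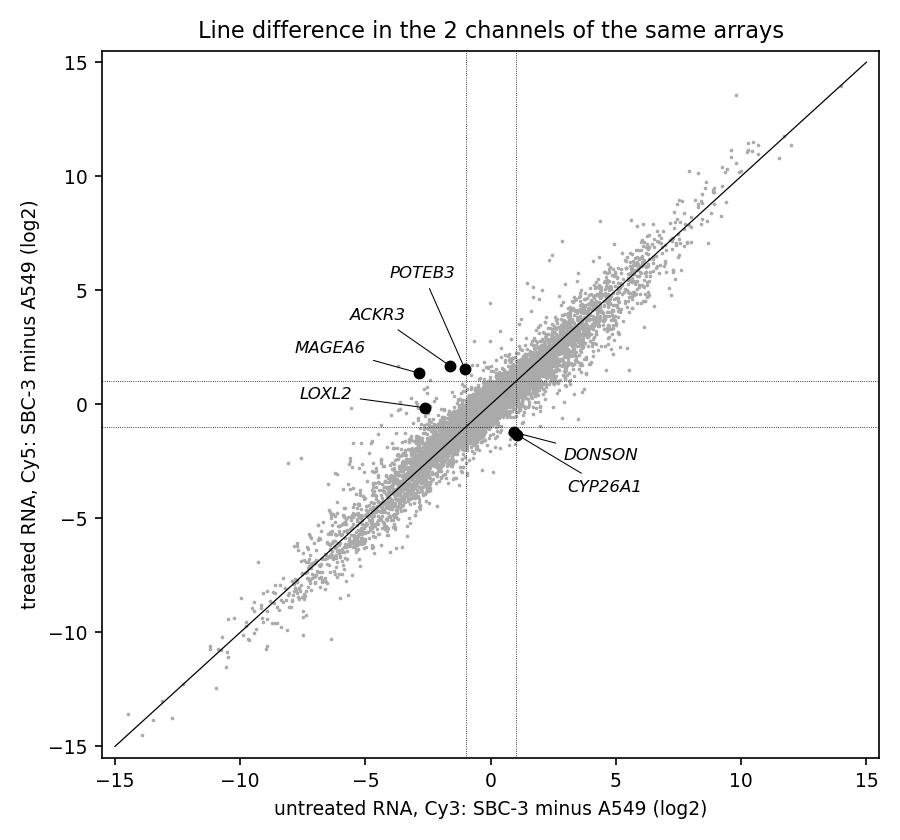
Log2 difference between the lines (SBC-3 minus A549) of each of the 14729 genes in untreated RNA (Cy3, horizontal axis) and in treated RNA (Cy5, vertical axis) of the same 6 arrays, with the line of equal differences and dotted lines at the fold limit. *DONSON* and *LOXL2*, targeted in the treated cells, and the 4 genes called with opposite signs lie away from the line.

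Each line was represented by 3 arrays, which may hold RNA of a single culture. Differences between the lines cannot be told apart from differences between their cultures or from the place of the arrays on the slide.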

How the data were processed

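RNA of cultured cells was hybridized to Agilent arrays with control RNA in Cy3 and treated RNA in Cy5. Per the file headers, the deposited intensity values were made by Agilent Feature Extraction 12.1.1.1, which subtracted background and corrected for dye, on a design annotated to GRCh37. From these files the log2 of the processed signal of each channel was quantile normalized over the 60901 non-control spots of the 6 arrays. Of 58201 probes, those with a RefSeq accession were named by the RefSeq table, which placed 24782 of 26463 accessions on 22439 genes. A probe counted when it was well above background on all 3 arrays of at least 1 line, and the mean over the 19520 counted probes gave 14729 genes. Among 3855 genes with several probes, the probes of 731 disagreed in direction. Lines were compared with limma 3.58.1 (R 4.3.3) by moderated t-tests adjusted over all genes tested, and tables and figures were made with Python 3.11.15, pandas 2.3.3 and matplotlib 3.10.9. The fit was tested on simulated data, and no result of that test is given here. Named genes are members of the lists given in the report, the 15 genes with the highest and the 15 with the lowest difference among called genes detected on all 6 arrays with the same sign in all probes and in Cy5, the 12 genes a line with the highest bounds among those detected in 1 line only, and *DONSON*, *LOXL2* and *HELLS*. Genes called with opposite signs in the channels, genes of chromosomal runs with their flanking genes and other genes outside these sets were named after their values were seen. Some list members are not reported by name here. Members and lists were chosen with earlier results of these data known. Alternatives covered normalization, background, filter, probe choice, call rule, gene naming, a replicate block and each array left out.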

Additional observations from a re-analysis of the deposited data

Results flagged for a closer look

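The lines were ordered in opposite ways in untreated and treated RNA for 5 named genes, with every array of a line on its own side in each channel. The red minus green level of each array was compared between the lines with limma, over all genes tested. For *DONSON*, the target of the siRNAs, the line difference in Cy5 minus that in Cy3 was -2.15 ± 0.15 SE. No test is given for it, since it was flagged by this same comparison. Its red SBC-3 channels also held 3 different siRNAs directed at it, which are not replicates of 1 treatment. The other genes were chosen because they were called with opposite signs in the channels, so their values only restate that choice and no test is given. *ACKR3*, a scavenger receptor of chemokines, went from -1.63 in Cy3 to 1.68 in Cy5, a change of 3.31 ± 0.43. *CYP26A1*, which degrades retinoic acid, went from 1.04 to -1.33 (-2.37 ± 0.16). *MAGEA6*, whose probes may read other genes of its family and differed by -4.71 and -0.99 in Cy3, went from -2.85 to 1.36 (4.21 ± 0.12). For *POTEB3*, of a family of near-identical genes, the change was 2.59 ± 0.39, which is not exact, since it was not well above background in SBC-3 in Cy3 (at least 1.60-fold higher in A549). The Cy3 calls of *ACKR3* (-0.89) and *CYP26A1* (0.61) were lost with normexp, that of *CYP26A1* also with 75th percentile scaling (0.99), and that of *POTEB3* with 75th percentile scaling (-0.85), with normexp (-0.11), without SBC-3 replicate 2 (-0.78) and without A549 replicate 1 (-0.93). Dye and treatment cannot be told apart in this design.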

How the results depend on the processing

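In Cy3 (3003 genes higher in SBC-3 and 3049 in A549), normexp background correction gave 1080 and 1102 calls, only probes well above background on all 6 arrays (12056 genes) 1990 and 1720, no fold limit 6359 and 6451, and a log2 difference of at least 2 gave 1456 and 1552. In Cy5 (2886 and 2824), normexp gave 1398 and 1409, and the all-array filter 1631 higher in A549. The filter leaves fewer genes and the limits change the rule itself, while normexp changed the background method, took median signals, since the files lack mean signals, and added an offset of 50, and which of these lowered the counts was not tested. The remaining alternatives kept both counts within 1.5 times, among them unnamed accessions counted as genes (4245 and 4213), chosen after seeing the data. Leaving out each array in turn gave 2998 to 3011 and 3020 to 3067 in Cy3, and 2836 to 2923 and 2767 to 2896 in Cy5. A replicate block gave 3002 and 3044 in Cy3 and 2892 and 2833 in Cy5. Same-numbered arrays did not deviate together (r = -0.017, -0.0097 and 0.00075 in Cy3), nor did each array correlate best with its own number, so the numbers were not used as pairs. Of 4233 values of named genes under alternatives, 4120 stayed on their side of the call, 102 fell short, 3 passed newly and 8 reversed. With normexp the named genes that fell short were *ACKR3*, *ARID1A*, *BCL2L1*, *BIK*, *CASD1*, *CDH3*, *CDKN2A*, *CDKN2C*, *CHGA*, *COL1A2*, *CYP26A1*, *CYP4F11*, *DLL1*, *DPF1*, *DSG2*, *E2F3*, *EGFR*, *ERBB3*, *FECH*, *FGB*, *FGFR1*, *FGFR2*, *FOXA1*, *GSTM4*, *HACD4*, *HOXA10*, *HOXA4*, *HOXA5*, *HOXA6*, *HOXA9*, *HOXB8*, *HOXC10*, *HOXC8*, *HOXD11*, *HOXD8*, *IFNE*, *ITGA4*, *KIF2C*, *KRT17*, *MAGEA12*, *MDM2*, *MERTK*, *MKI67*, *MLLT3*, *MTAP*, *MTHFD2L*, *MYO1A*, *MYT1*, *NAPSA*, *NEMP1*, *NEUROD1*, *NOTCH1*, *NOTCH4*, *OAS1*, *OAS3*, *PF4*, *POTEB3*, *POU4F1*, *PSMB8*, *PTGS1*, *R3HDM2*, *ROR2*, *SERPINB5*, *SMARCA2*, *SOX9*, *STAC3*, *SYP*, *TIGAR*, *TTLL6*, *USP18*, *ZNF14*, *ZNF433*, *ZNF442*, *ZNF600*, *ZNF610*, *ZNF676*, *ZNF677* and *ZNF681*. With 75th percentile scaling *CYP26A1*, *GINS4*, *KIF2C*, *NEMP1*, *POTEB3* and *R3HDM2* fell short, with no filter *STAC3*, *TTLL6* and *ZNF676*, with the brightest probe *CDKN2A* (also with the all-array filter), *HOXA10* and *NOTCH1*, with an array left out *CASD1*, *POTEB3*, *ZNF14* and *ZNF600*, and in Cy5 *CASD1*, *KIF2C*, *KRT17*, *LOXL2*, *MAGEA12* and *R3HDM2*. In Cy5, *DONSON* (-1.22), *ACKR3* (1.68), *CYP26A1* (-1.33), *MAGEA6* (1.36), *POTEB3* (1.55) and *MYO1A* (-0.093, not called) reversed; dye and treatment cannot be told apart there. *MTAP* was -1.83 with the all-array filter and with its brightest probe, which leave a single probe. Of 537 list medians, 397 moved by no more than the spread between arrays, 125 moved more, and 15 moved more and changed sign. The latter were liver-type genes (1.06) and leukocyte markers (0.15) with the all-array filter, endothelial markers (0.017), alveolar and airway genes (-0.014) and MHC class I genes (-0.012) with no filter, MYC family (-0.13), MHC class I (-0.027) and housekeeping genes (-0.14) with 75th percentile scaling, housekeeping genes (-0.17) with the brightest probe, and in Cy5 alveolar and airway genes (-0.096), RB pathway (0.048), MYC family (-0.12), MHC class I (-0.12), BCL2 family (0.067) and housekeeping genes (-0.0013). Most of these medians lay near 0. NRF2 targets had 27 to 38 members higher in A549 and medians from -3.42 to -2.39. Naming genes by a gene name of the array file was not run, since the files hold no such column. Between 42.2% and 45.5% of spots were well above background in Cy3, and genes below it could not be compared.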
